A study of Mus musculus with 8 samples.

Results

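The protocadherin genes were taken as every probe, controls aside, whose gene name in the array annotation began with Pcdh. This rule gave 73 probes for 48 genes, of 56605 probes and 37074 gene names in all. The clustered genes of chromosome 18 had 40 probes for 36 genes, namely 8 probes for 7 alpha genes, 23 probes for 22 beta genes and 9 probes for 7 gamma genes. The other 33 probes measured 12 genes, Pcdh1, Pcdh7, Pcdh8, Pcdh9, Pcdh10, Pcdh11x, Pcdh12, Pcdh15, Pcdh17, Pcdh18, Pcdh19 and Pcdh20, of which Pcdh1 and Pcdh12 also lie on chromosome 18. Total RNA from the whole cerebral cortex and striatum of 4 male C57BL/6J (B6) mice and 4 male BTBRTF/ArtRbrc (BTBR/R) mice was hybridised to 8 Agilent 1-colour arrays, with 1 mouse per array. Neither strain carried a transgene or received a treatment according to the labels. All mice were 4 months old except BTBR/R mouse 1, which was 6 months old. The study asked how gene expression in this tissue compares between B6 mice and BTBR/R mice, a subline of the BTBR strain, another subline of which is used as a model of autism spectrum disorder. In such bulk tissue, fewer cells of a type and less RNA per cell cannot be told apart.

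Protocadherins are adhesion proteins of the neuronal surface related to the cadherins of cell junctions. In the alpha and gamma clusters, each variable exon has its own promoter and is spliced to constant exons that the whole cluster shares, whereas each beta gene is a single exon. Each neuron uses its own combination of clustered isoforms, and matching combinations let the branches of a neuron recognise each other as self. The non-clustered delta-1 (Pcdh1, Pcdh7, Pcdh9, Pcdh11x) and delta-2 (Pcdh8, Pcdh10, Pcdh17, Pcdh18, Pcdh19) protocadherins act in the sorting and wiring of neurons, and Pcdh15 is a tip link protein of sensory hair cells.

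Levels are given as scaled signals, that is, processed signals divided by the 75th percentile of their own array and put on the log2 scale, so that 0 is that percentile and 1 unit is a 2-fold change. The percentile itself was a signal of 556 to 572 in B6 mice and 535 to 589 in BTBR/R mice. Detection means that the software marked a spot as well above background. The BTBR/R arrays detected 53.5% to 57.2% of all probes and the B6 arrays 64.5% to 66.8%, and their lowest detected signal was 36.1 to 47.1 against 14.5 to 17.8. All B6 arrays lay in one column of the slide and all BTBR/R arrays in the other, so the effects of strain and of slide position cannot be told apart. A difference is BTBR/R minus B6, and a probe was called when its adjusted p was below 0.05 and its change at least 2-fold. Adjusted p-values are from limma with Benjamini-Hochberg adjustment over all 56605 probes. Values of different probes depend on each probe's own brightness, so no gene's level is read against another's. The sequence of each strain under the probes and cross-hybridisation between like genes, such as those of a cluster, were not examined here. A difference is therefore one of probe signal, and where it rests on 1 probe of a gene, or on 1 of several similar clustered genes, it is not by itself shown to be one of that gene's transcript level.

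No protocadherin probe that was detected on all 8 arrays differed by 2-fold between BTBR/R and B6 mice. There were 50 such probes, for 33 genes, and 0 of them were called, where 2.20% of all probes detected on all 8 arrays were called in either direction. The 95% interval of the difference lay inside 1 log2 unit on either side of 0 for 50 of the 50 probes, and inside 0.5 log2 for 43 of them, with a median half-width of 0.16 log2. At an adjusted p below 0.05 without the 2-fold limit, 9 of the 50 probes were higher and 1 was lower in BTBR/R mice. The 9 higher probes are 18% of the 50, against 13.0% of all probes detected on all 8 arrays, and the 1 lower probe is 2.0%, against 13.9% of all such probes. The probes that rose measured Pcdh9, Pcdh8 (2 probes), Pcdh10, Pcdh11x, Pcdh19, Pcdhb4, Pcdhb15 and Pcdhb16, and the probe that fell measured Pcdha9. These 10 probes were singled out after their values were seen, and their differences ran from -0.45 to 0.52 log2. Without B6 mouse 3, 5 of the 50 probes passed.

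**Figure D1:**
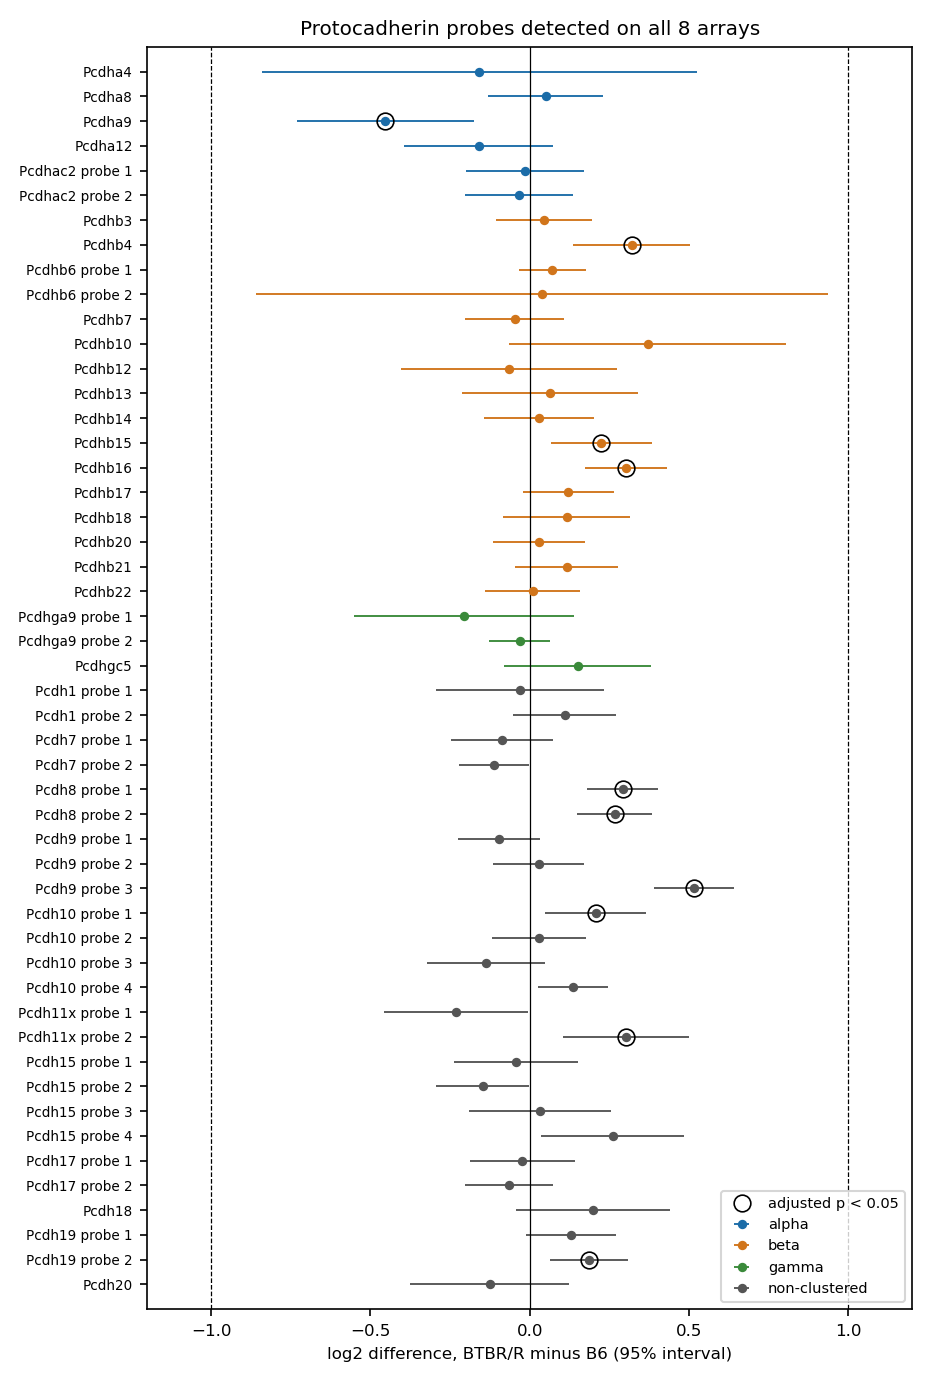
The difference between strains (log2, BTBR/R minus B6, x axis) is plotted for each of the 50 protocadherin probes detected on all 8 arrays, with its 95% interval as a bar, coloured by class and with the probes past an adjusted p of 0.05 circled. All 50 intervals end inside the dashed lines at 1 log2 unit on either side of 0, and the 10 circled probes lie between -0.45 and 0.52.

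The clustered and the non-clustered genes were set side by side by their counts and medians. Of the 25 clustered probes detected on all 8 arrays, 3 were higher and 1 was lower at an adjusted p below 0.05, with a median difference of 0.04 log2. Of the 25 non-clustered probes detected on all 8 arrays, 6 were higher and 0 were lower, with a median of 0.03 log2. The median over all probes detected on all 8 arrays was 0.002 log2, and 13.0% of them were higher and 13.9% lower at that threshold. In the clusters, 25 of 40 probes were detected on all 8 arrays, outside them 25 of 33, and over all probes 28547 of 56605. Whether these shares differ was not tested. Averaged over its 25 probes, the clustered level was -0.42, -0.35, -0.43 and -0.34 in the B6 mice and -0.37, -0.35, -0.33 and -0.35 in the BTBR/R mice, which overlapped. The non-clustered average was -0.01, -0.07, -0.12 and -0.007 in the B6 mice and 0.01, 0.03, -0.02 and 0.03 in the BTBR/R mice, which overlapped as well.

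The beta genes encode whole protocadherins in a single exon each, and RefSeq lists 22 of them, all of which had a probe here. Of the 16 beta probes detected on all 8 arrays, 14 had a positive difference, the median was 0.07 log2, and 3 were higher in BTBR/R mice at an adjusted p below 0.05. These 3 are 18.75% of the 16, against 13.0% of all probes detected on all 8 arrays. The share of positive differences over all such probes was not computed, so the 14 are not read as a shift of the cluster. Pcdhb16 (probe chr18:37642126-37642185 in mm9) had scaled signals of -0.39, -0.27, -0.19 and -0.24 in B6 mice and 0.04, 0.06, 0.003 and 0.02 in BTBR/R mice. Every BTBR/R mouse lay above every B6 mouse, and the difference was 0.30 log2 (SE 0.05, adjusted p = 0.00354, limma). Pcdhb4 was at -2.23, -2.30, -2.53 and -2.34 in B6 mice and at -2.09, -1.93, -1.99 and -2.11 in BTBR/R mice, again without overlap. Its difference was 0.32 log2 (SE 0.08, adjusted p = 0.0147, limma). Pcdhb15 was at -1.97, -1.84, -1.96 and -1.97 in B6 mice and at -1.68, -1.57, -1.75 and -1.83 in BTBR/R mice. The highest B6 mouse and the lowest BTBR/R mouse of Pcdhb15 were nearly level, and its difference of 0.23 log2 (SE 0.07, adjusted p = 0.0343, limma) was past the threshold in 10 of the 19 alternative settings. Leaving out B6 mouse 1, 3 or 4 or BTBR/R mouse 1, 2 or 3 took it to adjusted p-values of 0.0573 to 0.0814, and with the normexp background correction its difference was 0.15 log2 (adjusted p = 0.0894, limma).

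The point estimate of Pcdhb10 was larger than those of the beta genes that passed, 0.37 log2 with an interval from -0.06 to 0.80, but its mice overlapped and it did not pass (adjusted p = 0.157, limma). Pcdhb12 had the lowest difference of the beta probes detected on all 8 arrays, -0.06 log2 with an interval from -0.40 to 0.27. Pcdhb21 was at 1.08, 1.15, 0.995 and 1.22 in B6 mice and 1.28, 1.12, 1.21 and 1.31 in BTBR/R mice, a difference of 0.12 log2 with an interval from -0.04 to 0.28. Pcdhb6 had 2 probes of unequal spread. The first gave 0.07 log2 with an interval from -0.03 to 0.18, whereas on the second BTBR/R mouse 2 stood at -0.73 and the other 7 mice between -2.58 and -1.74, which widened the interval to -0.86 to 0.94. Over the 16 beta probes, the average level was -1.10, -0.98, -1.10 and -0.97 in B6 mice and -0.97, -0.86, -0.90 and -0.98 in BTBR/R mice, which overlapped.

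The alpha cluster was measured in part, since 7 of the 14 alpha genes of RefSeq had a probe. Of the 6 alpha probes detected on all 8 arrays, 5 had a negative difference, with a median of -0.10 log2. The share of negative differences over all such probes was not computed, so the 5 are not read as a shift of the cluster. Pcdha9 (probe chr18:37159948-37160007) was at -1.91, -1.54, -1.58 and -1.63 in B6 mice and at -2.03, -2.37, -2.14 and -1.94 in BTBR/R mice. Among the probes detected on all 8 arrays it was the only one lower in BTBR/R mice at an adjusted p below 0.05, and it fell by 0.45 on the log2 scale (SE 0.12, adjusted p = 0.0199, limma). B6 mouse 1 lay just above BTBR/R mouse 4 in this gene, so the gap between strains was narrow. With normexp, another background correction, it fell by 0.24 on the log2 scale (adjusted p = 0.0381, limma). Without B6 mouse 2 or 3 the adjusted p was 0.0549 or 0.0539, and with signals floored at the highest detection limit it was 0.0642 (limma). Pcdha8 was higher by 0.05 log2 with an interval from -0.13 to 0.23, and its mice overlapped. The Pcdha8 probe also lists Pcdha7 and predicted genes of the cluster, and the Pcdha4 probe, at -0.16 log2 with an interval from -0.84 to 0.53, lists a predicted gene too.

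A pair of probes named Pcdhac2 list transcripts of several alpha genes in the array annotation, Pcdha4, Pcdha9, Pcdhac1 and Pcdhac2 among them, so they cannot separate the isoforms. The first was at 3.33, 3.35, 3.31 and 3.44 in B6 mice and 3.40, 3.13, 3.40 and 3.44 in BTBR/R mice. Their differences were -0.01 log2 (interval -0.20 to 0.17) and -0.03 log2 (interval -0.20 to 0.14). Whether Pcdha9 differs from the shared alpha probes was not tested. BTBR/R mouse 2 had the lowest value of the 8 mice on 3 of the 6 alpha probes, and the median of the alpha probes became 0.02 log2 without it.

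The gamma cluster had the fewest measurable probes, 3 of 9 on all 8 arrays, and RefSeq lists 21 gamma genes of which 7 had a probe. Both probes named Pcdhga9 lie beyond the probe of Pcdhgc5 and list Pcdhga1, Pcdhga5, Pcdhga6 and Pcdhga9, so they too measure gamma transcripts together. One of them was at 5.52, 5.56, 5.55 and 5.61 in B6 mice and 5.54, 5.55, 5.52 and 5.50 in BTBR/R mice. The strains overlapped, and the difference was -0.03 log2 (SE 0.04) with an interval from -0.13 to 0.07. The other gave -0.21 log2 with an interval from -0.55 to 0.14. Pcdhgc5, the last gamma gene, was at -3.25, -3.07, -2.85 and -3.17 in B6 mice and -3.08, -2.85, -2.90 and -2.90 in BTBR/R mice, a difference of 0.15 log2 with an interval from -0.08 to 0.38.

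**Figure D2:**
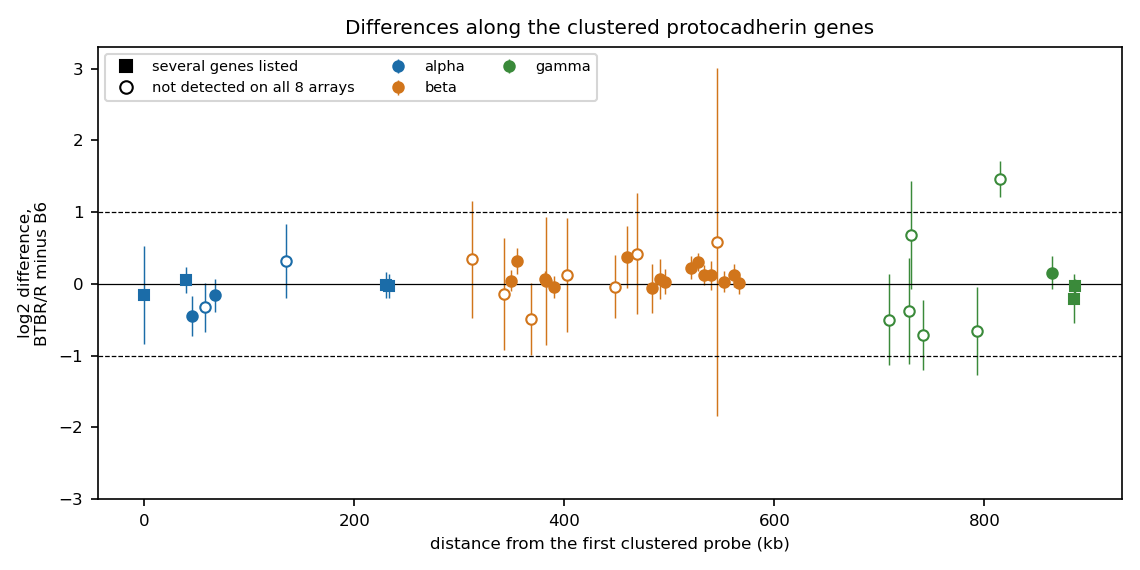
The difference between strains (log2, BTBR/R minus B6, y axis, with 95% intervals) is plotted for the 40 clustered probes against the distance of each probe from the first of them (kb, x axis), in the order alpha, beta and gamma. Squares list several genes, open symbols were not detected on all 8 arrays, and the filled symbols stay between -0.45 and 0.37 along the whole locus, whereas the open symbols run from -0.71 to 1.46, with only Pcdhga12 beyond the dashed lines at 1 log2 unit on either side of 0.

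The genes around the clusters and those known to act on them were counted in the same way. For comparison, 13.0% of all probes detected on all 8 arrays were higher and 13.9% lower at an adjusted p below 0.05, and 2.20% were called. Within 1 Mb of the first and the last clustered probe, there were 74 probes of other genes with detection on all 8 arrays. At an adjusted p below 0.05, 5 of them were higher and 3 lower, and their median was 0.02 log2. The 1 called probe among them measured Rell2 and fell by 2.25 on the log2 scale, from between 5.16 and 5.31 in B6 mice to between 2.86 and 3.07 in BTBR/R mice, while the other Rell2 probe gave -0.09 log2, so this too is a difference of 1 probe's signal. Genes of promoter choice and chromatin at the clusters, such as Ctcf, the cohesin subunit Rad21 and Trim28, had 47 probes detected on all 8 arrays. Of these 1 was higher and 5 were lower at an adjusted p below 0.05, 0 were called, and the median was 0.04 log2. Genes of intracellular and membrane partners, such as the WAVE complex members Cyfip1, Cyfip2 and Wasf2, had 58 such probes, with 5 higher, 6 lower, 0 called and a median of -0.03 log2.

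The other protocadherins were taken by family. The 5 delta-2 genes had 11 probes, and every one was detected on all 8 arrays. In BTBR/R mice 4 of these were higher and 0 lower at an adjusted p below 0.05, with a median of 0.14 log2. The 4 measured Pcdh8 (2 probes), Pcdh10 and Pcdh19. Over all probes detected on all 8 arrays, 13.0% were higher and 13.9% lower at that threshold. The delta-1 genes had 9 probes detected on all 8 arrays, 2 of them higher and 0 lower, with a median of -0.03 log2. Pcdh15 and Pcdh20 had 5 such probes, of which 0 passed.

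Pcdh9, a delta-1 protocadherin of cortical and other neurons, had the largest difference of the 50 probes, on 1 of its 3 probes. The probe lies at chr14:94285055-94285114 on the minus strand in mm9, upstream of the other 2 in the gene. Its 60 bases are shown, 5′ to 3′, because the difference rests on this probe.

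Pcdh9 upstream probe: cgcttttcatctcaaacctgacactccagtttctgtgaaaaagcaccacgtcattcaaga

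On this probe Pcdh9 was at 2.12, 2.16, 2.15 and 2.21 in B6 mice and at 2.59, 2.78, 2.66 and 2.66 in BTBR/R mice. The strains were far apart relative to the spread within each, and the difference was 0.52 log2 (SE 0.05, interval 0.39 to 0.64, adjusted p = 0.000163, limma), which is 1.43-fold. The other 2 probes of Pcdh9, 325 kb and 872 kb downstream, did not pass, with differences of 0.03 log2 (interval -0.11 to 0.17) and -0.10 log2 (interval -0.23 to 0.03). Neither interval reaches that of the upstream probe. Within each mouse, the upstream probe exceeded the probe 872 kb away by 0.78 to 0.90 log2 in B6 mice and by 1.36 to 1.55 log2 in BTBR/R mice. The excess over the probe 325 kb away was 3.40 to 3.52 log2 in B6 mice and 3.92 to 4.04 log2 in BTBR/R mice, and in neither case did the strains overlap. The signals of the Pcdh9 probes thus differed unequally between strains, and as the strain sequence under the upstream probe was not examined, its difference is that of this probe's signal.

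The other delta-1 genes showed smaller differences that varied by probe. Pcdh11x had a probe at 1.15, 0.84, 0.88 and 1.09 in B6 mice and 1.39, 1.26, 1.26 and 1.25 in BTBR/R mice, a rise of 0.30 log2 (SE 0.08, adjusted p = 0.0251, limma). Without B6 mouse 2, B6 mouse 3 or BTBR/R mouse 1 its adjusted p was 0.0594 to 0.0658, and with the floor 0.0648 (limma). Another probe of Pcdh11x pointed the other way, at -0.23 log2 with an interval from -0.46 to -0.005, and did not pass (adjusted p = 0.0981, limma), except without BTBR/R mouse 1 (adjusted p = 0.0452). The remaining Pcdh11x probe was not detected on all arrays and gave -0.16 log2. Pcdh7 had 2 probes detected on all 8 arrays, with differences of -0.09 and -0.11 log2 and upper interval limits of 0.07 and -0.001. Pcdh1, known from epithelia as well as brain, had differences of -0.03 and 0.11 log2 on its 2 probes detected on all 8 arrays.

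Pcdh8, also called arcadlin, is a delta-2 protocadherin whose transcript is known to rise with synaptic activity and which acts in the endocytosis of N-cadherin. Its 2 probes, at chr14:80166728-80166787 and chr14:80167018-80167077 in mm9, gave like differences. The first was at 1.22, 1.14, 1.09 and 1.17 in B6 mice and 1.39, 1.48, 1.46 and 1.46 in BTBR/R mice, a rise of 0.29 log2 (SE 0.05, interval 0.18 to 0.40, adjusted p = 0.00203, limma). The second was at 0.25, 0.29, 0.16 and 0.20 in B6 mice and 0.49, 0.56, 0.44 and 0.48 in BTBR/R mice, a rise of 0.27 log2 (SE 0.05, interval 0.15 to 0.39, adjusted p = 0.00434, limma). On both probes every BTBR/R mouse lay above every B6 mouse. Beside this, the list of activity-regulated neuronal genes was higher in BTBR/R mice, with a median of 1.05 log2 over 17 probes detected on all 8 arrays. Of these, 11 were higher and 0 lower at an adjusted p below 0.05, and 9 were called. The shares over all probes detected on all 8 arrays were 13.0% higher, 13.9% lower and 2.20% called. The summed signal of the list ran from 27739 to 57444 in B6 mice and from 84072 to 92165 in BTBR/R mice. The called probes measured Fos, Fosb, Junb, Arc, Egr2, Egr4, Nr4a1 and Dusp1, with Egr2 the highest at 2.27 log2. B6 mouse 3 was the highest of its strain on the called probes and the lowest of its strain on both Pcdh8 probes. BTBR/R mouse 2 was the highest of its strain for Fos, Arc, Egr2, Nr4a1 and Dusp1 and on both Pcdh8 probes. The part of the list in the difference of Pcdh8 was not tested.

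The promoter of Pcdh8 is shown because both of its probes moved together. It is the 250 bases before the RefSeq start, chr14:79771313-79771562 on the minus strand of GRCm38.p6, 5′ to 3′, with the one motif match in capitals.

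Pcdh8 promoter: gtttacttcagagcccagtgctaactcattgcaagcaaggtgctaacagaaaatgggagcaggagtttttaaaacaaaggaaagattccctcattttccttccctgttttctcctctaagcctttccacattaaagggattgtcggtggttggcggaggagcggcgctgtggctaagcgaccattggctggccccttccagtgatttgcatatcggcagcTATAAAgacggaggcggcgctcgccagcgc

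The capitals mark a TATAAA match that begins at -30 from the start. Both strands of the window from 250 bases before to 50 after the start were searched for TATAAA, for the CRE letters TGACGTCA and their core TGACG, which lies within them, for the AP-1 letters TGANTCA and for the EGR letters GCGNGGGCG. Of 32851 mouse promoters of this length in RefSeq, 13.6% hold TATAAA, 1.79% TGACGTCA, 20.8% TGACG, 7.81% TGANTCA and 5.55% GCGNGGGCG. The Pcdh8 window held only the TATAAA match. Among the 9 non-clustered genes whose promoters were searched, TATAAA was also found in Pcdh15, TGACG in Pcdh9 and Pcdh10, and the EGR letters in Pcdh17. A match is a description of the letters and not of a bound site.

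Of the other delta-2 genes, Pcdh19, whose human counterpart is mutated in an epilepsy of females, had a probe at 1.72, 1.71, 1.55 and 1.69 in B6 mice and 1.84, 1.86, 1.82 and 1.89 in BTBR/R mice. Its difference was 0.19 log2 (SE 0.05, adjusted p = 0.0257, limma), and the other Pcdh19 probe gave 0.13 log2 with an interval from -0.01 to 0.27. Without B6 mouse 3 or BTBR/R mouse 2 or 4 the adjusted p of the first was 0.0506 to 0.0653, and with scaling to the array median 0.0825 (limma). Pcdh10, a gene of axon growth and synapse elimination, had 4 probes with differences of 0.21, 0.14, 0.03 and -0.14 log2. The first of these passed (SE 0.07, adjusted p = 0.0446, limma) and was at 1.96, 1.84, 1.72 and 1.96 in B6 mice and 2.11, 2.08, 2.02 and 2.10 in BTBR/R mice. It passed in 8 of the 19 alternative settings, and leaving out B6 mouse 2 or 3 or any BTBR/R mouse gave adjusted p-values of 0.0613 to 0.101 (limma). The second Pcdh10 probe, at 0.14 log2, had an interval from 0.03 to 0.25 and did not pass (adjusted p = 0.0528, limma), though its strains did not overlap. Its adjusted p was 0.0248 with quantile normalization, 0.0371 with the floor and 0.107 with normexp (limma). Pcdh17, which acts at synapses between cortex and striatum, gave -0.07 log2 (interval -0.20 to 0.07) and -0.02 log2 (interval -0.19 to 0.14). Pcdh18 gave 0.20 log2 with an interval from -0.04 to 0.44.

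Pcdh15 and Pcdh20 did not pass on any probe detected on all 8 arrays. Pcdh15 had 4 such probes, with differences from -0.15 to 0.26 log2. The highest was at -0.69, -0.92, -0.82 and -0.55 in B6 mice and -0.31, -0.53, -0.56 and -0.54 in BTBR/R mice, with an interval from 0.04 to 0.49 and an adjusted p of 0.0669 (limma), which was 0.0306 without B6 mouse 4 and 0.0396 with limma's trend and robust options. Pcdh20 gave -0.13 log2 with an interval from -0.38 to 0.12.

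**Figure D3:**
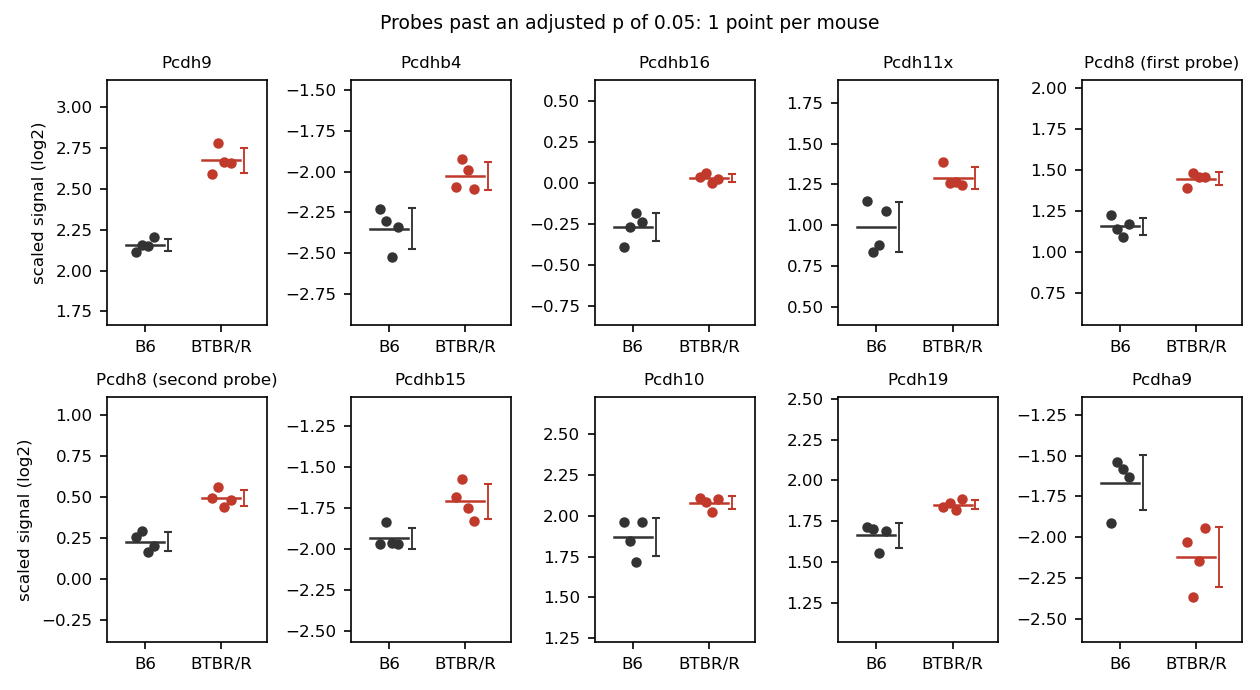
Scaled signals (log2, y axis, 1.5 units high in each panel and centred on each probe) of the 10 probes past an adjusted p of 0.05 and detected on all 8 arrays are shown with 1 point per mouse, the mean of 4 mice as a line and the SD as a bar. The strains do not overlap in any panel. Pcdh9, at 0.52, has the widest gap between means, and Pcdha9, at -0.45, is the only one lower in BTBR/R mice.

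The 23 probes not detected on all 8 arrays cover the remaining 15 genes, which had no other measurement, and further probes of measured ones. Of these, 6 were detected on all B6 arrays and some BTBR/R arrays, 2 on all B6 arrays and no BTBR/R array, 8 on no array and 7 in other patterns. Pcdhac1, Pcdhb1, Pcdhb8, Pcdhb11 and Pcdhga12 were detected on no array. Both probes called over all 73 belong here, against a background of 20.2% of all probes called higher and 2.27% called lower. They measured Pcdhga12, at 1.46 log2, and Pcdh12, a protocadherin of vascular endothelium, at 1.42 log2. Neither was well above background on any array, and both held the software's surrogate for low signals on all 8 arrays. Of all probes detected on no array, 67.7% were called higher. No fold change is drawn from either. With the normexp background correction their differences were 0.02 and 0.05 log2.

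Among the probes detected on some arrays, 3 were lower in BTBR/R mice at an adjusted p below 0.05. The share over all probes detected on some arrays was not computed, so this count is not read as a result about the protocadherins. Pcdh7 had a further probe at -3.23, -3.28, -3.52 and -3.42 in B6 mice and -3.66, -3.67, -3.85 and -3.59 in BTBR/R mice, detected on 4 B6 arrays and 1 BTBR/R array, with a difference of -0.33 log2 (adjusted p = 0.0191, limma). Pcdhga5, at -0.71 log2, and a Pcdh12 probe, at -0.79 log2, were detected on 2 and 3 B6 arrays and on 0 BTBR/R arrays. Both lie in a range that the BTBR/R arrays did not resolve, and the BTBR/R signals of Pcdhga5 were surrogates on all 4 arrays. The Pcdh7 probe lay at the edge of that range, as it was detected on only 1 BTBR/R array. With normexp the differences were -0.23 log2 for Pcdh7, -0.16 log2 for Pcdhga5 and -0.03 log2 for Pcdh12. With signals floored at the highest detection limit, Pcdh7 was at -0.19 log2 and did not pass (adjusted p = 0.142, limma). Pcdhga5 and the Pcdh12 probe then showed no difference. Pcdhgb1 was detected on 4 B6 arrays and 0 BTBR/R arrays on 1 of its probes, with a difference of -0.38 log2 and an interval from -1.12 to 0.36. Some wide intervals rest on a single mouse. Pcdhb19 stood at -0.69 in BTBR/R mouse 3 and between -5.84 and -4.23 in the other 7 mice.

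**Figure D4:**
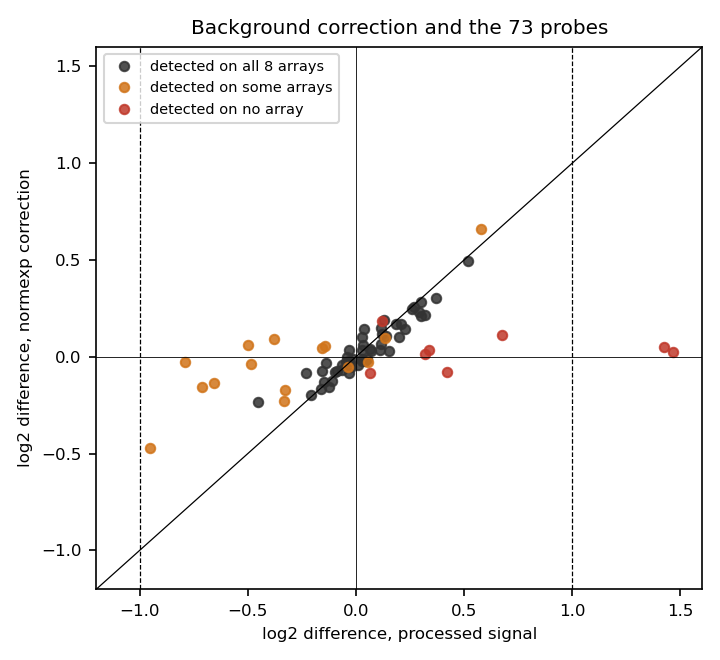
The difference between strains (log2, BTBR/R minus B6) of all 73 protocadherin probes from the processed signal (x axis) is set against that from the raw signal with normexp background correction (y axis), coloured by detection, with the line of equality and dashed lines at a 2-fold change. Of the probes detected on all 8 arrays, Pcdha9 is the farthest from the line, at -0.45 and -0.24, and Pcdh9 lies at 0.52 and 0.50. The 2 probes detected on no array beyond 1 log2 unit on the x axis, Pcdhga12 and Pcdh12, lie at 0.02 and 0.05 on the y axis.

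Markers of the cell types in this tissue were counted over probes detected on all 8 arrays. Among all such probes, 13.0% were higher and 13.9% lower at an adjusted p below 0.05, and 2.20% were called. Of 15 probes of excitatory neurons, 3 were higher and 1 lower at an adjusted p below 0.05, of 13 of interneurons 1 and 1, and of 17 of striatal projection neurons 0 and 2, with 0 called in each. Of 19 astrocyte probes, 0 were higher and 7 lower, with a summed signal of 296356 to 330215 in B6 mice and 244967 to 271854 in BTBR/R mice. Of 16 oligodendrocyte and precursor probes, 1 was higher and 3 were lower, with a median of -0.25 log2. Of 11 microglial probes, 2 were higher and 5 lower, with Cx3cr1 called at 1.71 log2 on a probe whose partner gave -0.71 log2, and C1qb called at -1.42 log2. Of 13 endothelial and mural probes 0 were higher and 2 lower, and of 8 choroid plexus and ependyma probes 0 and 1. The part of these differences in those of the protocadherins was not tested.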

How the data were processed

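The authors hybridised Cy3-labelled cRNA from each mouse and deposited the scanner output of Agilent Feature Extraction 10.7.3.1, in which each spot has an intensity (raw mean, local background and a processed signal with surrogate values at the low end) and flags for controls, outliers and detection. Log2 values deposited by the authors differed from those used here by a fixed offset on each array (tolerance 0.01, met by 99.97% of probes or more).

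Control spots and outliers were left out, spots of a probe were averaged, and 56605 of the probes were fitted with limma 3.58.1 (lmFit, eBayes) in R 4.3.3 on log2 processed signal minus the array's 75th percentile. Python 3.11.15, numpy 2.4.6, pandas 2.3.3 and matplotlib 3.10.9 were used for the rest. Tested on simulated data (this comparison, 56605 probes), 92 of 100 changes of 1.5 log2 and 97 of 100 changes of 2 log2 were recovered, and 4 unchanged probes were called. The simulated signals were normal noise around each probe's mean, and changes were placed only in probes detected on every array of a strain. They held no low-signal floor that differed between strains. The simulation therefore does not describe the dim probes or differences smaller than 1.5 log2. With 4 arrays per strain, their number limits the precision.

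Groups follow the strain in the labels, and replicate numbers did not pair mice. Probe positions are those of the array annotation (mm9). Of the 73 probes, 66 were matched to RefSeq by accession, all with the same symbol. The rule named called probes detected on every array of a strain (there were 0) and, for each class, the brightest probe and the largest rise and fall among those detected on all 8 arrays, which gave 18 probes. Another 7 past an adjusted p of 0.05 were added after their values were seen, and alternatives were computed for these 25. Further probes of these genes are given as differences or ranges. The members and lists were chosen with earlier results of these data known.

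The alternatives were normexp with an offset of 50, quantile normalization, other scalings, the deposited log2 values, filters on dim probes, a floor at the highest detection limit, the methods' t-test, limma with trend and robust options, a replicate block, and leaving out each mouse.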

Additional observations from a re-analysis of the deposited data

Results flagged for a closer look

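In 5 of the 50 groups of 4 mice tested for the 25 named probes, 7 of which were chosen after their values were seen, 1 mouse stood apart from the other 3 by Dixon's criterion, which chance alone passes in about 1 of 20 groups. Over all 73 probes it was 12 of 146 groups. BTBR/R mouse 2 was the lowest of its strain for Pcdhac2 (first probe), at 3.13, and for Pcdhb12, at -2.47. BTBR/R mouse 1, the 6-month-old animal, was the highest of its strain for Pcdh15 on the probe with the highest difference, at -0.31, and for Pcdh11x on the probe that passed, at 1.39. B6 mouse 2 was the highest of its strain for Pcdhb15, at -1.84. Without BTBR/R mouse 1 the Pcdh11x difference was 0.27 log2 (adjusted p = 0.0597, limma), and without B6 mouse 2 the Pcdhb15 difference kept an adjusted p below 0.05.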

How the results depend on the processing

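No probe past an adjusted p of 0.05 changed direction over the 25 named probes and 19 alternatives, whereas 5 probes near 0 (-0.06 to 0.05 log2), none of them past it, changed sign in 7 instances (Pcdha8 and a Pcdhga9 probe under normexp, both Pcdhac2 probes and Pcdhb12 without 1 mouse). The probes of Pcdh9, Pcdh8 and Pcdhb16 passed in all 19, and Pcdhb4 in 18. The 50 probes detected on all 8 arrays gave 0 calls in every alternative. The 2 called probes (1 clustered, 1 non-clustered) were not called, leaving 0 higher, 0 clustered and 0 non-clustered, under normexp, either filter on dim probes or the floor. Under the filters the probes were not tested. Quantile normalization gave 0 higher, 1 lower (Pcdhga5, -1.31 log2) and 0 non-clustered calls, and its cause was not tested. The gamma median was 0.029 log2 under normexp against -0.03. Over all 73 probes, 15 passed an adjusted p of 0.05, and 7 with the floor.

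The replicate block left 6 of 10 passing probes among those detected on all 8 arrays, without Pcdha9 (adjusted p = 0.0745, limma), Pcdhb4, Pcdh10 and Pcdh19. Same-numbered mice deviated with r of -0.07 to 0.16, so the numbers were taken as names only. Leaving out each mouse gave 9 to 15 probes past an adjusted p of 0.05 over all 73, and 5 to 11 of the 50 (5 without B6 mouse 3). The alpha median then ran from -0.13 to 0.015 (without BTBR/R mouse 2), the beta median from 0.06 to 0.11, the gamma median from -0.04 to -0.01 and the non-clustered median from -0.001 to 0.05 log2. Signals below about 47 on the BTBR/R arrays were not resolved, which limits the 23 probes not detected on all 8 arrays.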

Other observations

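The other cadherins were counted in the same way, beside shares of 13.0% higher, 13.9% lower and 2.20% called over all probes detected on all 8 arrays. Of 52 probes of other cadherin genes detected on all 8 arrays, 14 were higher and 6 lower at an adjusted p below 0.05, 3 were called, and the median was 0.05 log2. Whether these shares differ from those of the protocadherins was not tested. Cdhr1, a cadherin-related gene of photoreceptors and olfactory bulb, was at -0.79, -1.73, -1.33 and 0.01 in B6 mice and 0.63, 0.93, 1.16 and 0.93 in BTBR/R mice, a difference of 1.87 log2. The B6 mice were spread over more than 1 log2 unit. Celsr3, a seven-pass cadherin of axon guidance, was called on 1 probe at 1.63 log2. This probe was dim, at -4.14 to -3.67 in B6 mice and -2.80 to -1.89 in BTBR/R mice. The Celsr3 probe at 3.44 to 3.67 in the 8 mice differed by 0.16 log2. The remaining Celsr3 probe, detected on 2 B6 arrays and 0 BTBR/R arrays, gave -0.52 log2. Cdh10 was called on 1 probe at -1.17 log2, and another gave -0.69 log2. The remaining Cdh10 probe was at 0.69 in BTBR/R mouse 1 and at -0.33, -0.34 and -0.25 in the other BTBR/R mice, against -0.50 to -0.16 in B6 mice, so its difference of 0.24 log2 rests on that mouse. The strain sequence under these probes was not examined, and each value is a difference of that probe's signal.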
